A study of Rattus norvegicus with 10 samples.

Results

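Homeostatic microglia and myeloid genes are described here as a set of 31 named genes. They were chosen by symbol, and 30 of them were found among the 17168 genes of the deposited tables. The expression of Dock2, the remaining name, was not analysed here, and Dock2 enters only the counts of promoters and of overlapping genes. All 30 passed the filter on low counts, which kept 12161 genes in all. The samples were left hippocampi of male rats of the TgF344-AD line at 11 months of age, each sequenced as 1 library. These rats carry mutant human amyloid precursor protein and presenilin transgenes under a mouse prion promoter and serve as a model of Alzheimer's disease. One group of 5, called untreated, received plain chow, and the other 5 received chow holding 750 mg RG2833 per kg from 5 months of age for 6 months. RG2833 inhibits HDAC1 and HDAC3, enzymes that remove acetyl groups from histones. Both groups carry the transgenes, so the comparison is between treated and untreated transgenic males. The drug is RG2833 by title and treatment label, although a timing sentence of the design text names ibudilast.

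Microglia are the resident macrophages of the brain. In healthy tissue they survey their surroundings through nucleotide, chemokine and growth factor receptors, and the transcription factor PU.1, encoded by Spi1, maintains much of their gene programme. Receptors on their surface pass signals through adaptors that carry activation motifs, which Src-family and Syk kinases phosphorylate and phosphatases counteract. Tmem119 and P2ry12 mark resident microglia, whereas Ptprc, Cd53, Cd37, Vav1 and Coro1a are shared by many white blood cells.

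Library totals ran from 15118203 to 18533520 expected counts. Depth was ample for most members. The fewest reads were those of Ly86, with 31 to 61 counts per library, and of Vav1, with 41 to 118. The most were those of Ctss, with 4861 to 9447. Values are counts scaled to a common TMM-adjusted library size (CPM, the usual per-million scale), a level that is not divided by transcript length, so levels are compared between libraries and not between genes. Each tissue piece is a mixture of cell types, and fewer microglia cannot be told apart from less RNA per microglial cell.

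The microglia and myeloid genes did not differ between RG2833 and untreated rats by more than the spread between animals. Of the 30 genes, 16 had a higher mean and 14 a lower mean in RG2833 rats, with a median log2 fold change of 0.02. Over all 12161 genes the median was -0.01 and 46.5% were higher. At an adjusted p under 0.05 in edgeR's quasi-likelihood test, 0 of the 30 passed, as did 0 of all genes (0%). At an unadjusted p under 0.05 there were also 0 of the 30, against 5.66% of all genes. DESeq2 called 0 of the 30 at an adjusted p under 0.05, against 0.0578% of all genes with an adjusted p, and limma-voom with sample weights called 0 of the 30 and 0 of all genes. The latter, which gave untreated replicate 3 a weight of 0.239 against 0.699 to 2.01 in its group mates, put 27 of the 30 higher (47.8% of all genes), with a median of 0.12, and 3 (Fcer1g, Lyn and Laptm5) at an unadjusted p under 0.05, against 10.4% of all genes. In edgeR's test the smallest unadjusted p among the 30 was 0.0854, and for 0 of the 30 did the values of the groups not overlap, against 1% of all genes. Fold changes ran from -0.24 for Plcg2 to 0.31 for Lyn on the log2 scale.

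The same genes varied together from rat to rat. The mean of the 30, as a log2 deviation from the average of the 10 libraries, was 0.61 in untreated replicate 3. In the other 4 untreated rats it was -0.19, -0.25, -0.14 and -0.17. In RG2833 replicates 1 to 5 it was -0.17, 0.03, -0.20, 0.22 and 0.28. Untreated replicate 3 was thus at 1.73-fold the geometric mean of its 4 group mates, while those 4 were close to each other (SD 0.04, n = 4). The RG2833 rats were spread between them (SD 0.22, n = 5), with replicates 2, 4 and 5 above the 4 lower untreated rats and replicates 1 and 3 among them.

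**Figure D1:**
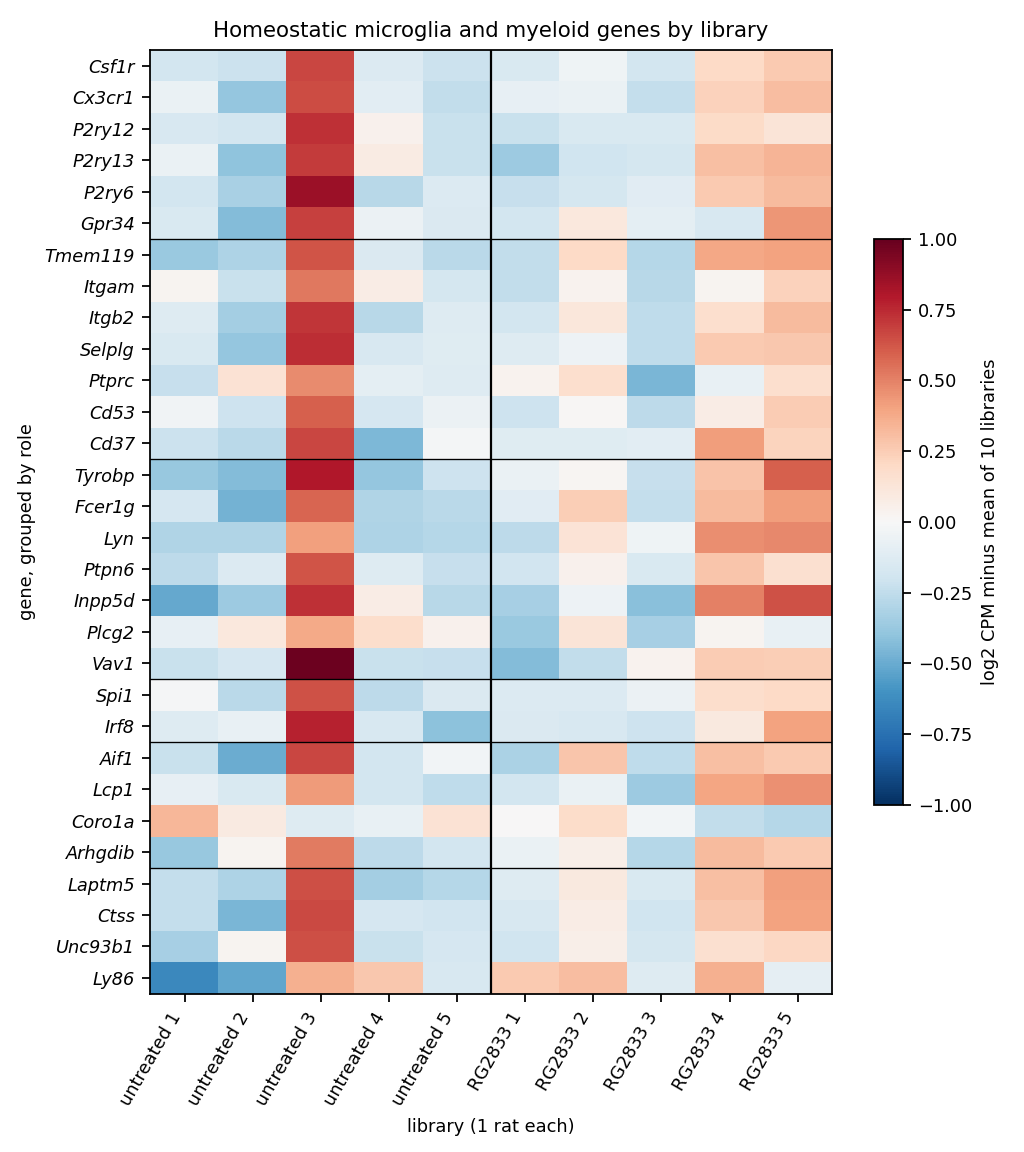
Log2 CPM of the 30 genes in each library (1 rat each) as the difference from the gene's mean over the 10 libraries, grouped by role, with untreated rats left of the vertical line and RG2833 rats right of it. The column of untreated replicate 3 is red for all genes except Coro1a, and RG2833 replicates 4 and 5 are red for most.

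Untreated replicate 3 was the highest of the 10 libraries for 27 of the 30 genes, where it was the highest for 19.2% of all genes tested. The exceptions were Lyn and Lcp1, highest in RG2833 replicate 5, and Coro1a, highest in untreated replicate 1. For 23 of the 30 genes the 3 highest libraries were untreated replicate 3 and RG2833 replicates 4 and 5, against 14.8% of all genes. RG2833 replicates 4 and 5 were the 2 highest of their own group for 23 of the 30, against 26.2%. These counts describe libraries picked after their values were seen, and genes of 1 cell type are not independent of each other. The size of the excess in untreated replicate 3 differed by gene, from 2.28-fold the mean of the other 4 untreated rats for Vav1, 2.22-fold for Tyrobp and 2.11-fold for P2ry6 to 1.24-fold for Plcg2 and 0.835-fold for Coro1a.

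Among the receptors, Csf1r encodes the receptor for colony-stimulating factor 1 and interleukin 34, on which microglia depend for survival. Its level was 150.0, 147, 271, 155 and 147 CPM in untreated replicates 1 to 5 and 153, 166, 150.3, 195 and 204 CPM in RG2833 replicates 1 to 5. The untreated rats other than replicate 3 lay within a narrow band, and the groups overlapped. The group means were 174 ± 54.5 and 174 ± 24.5 CPM (SD, n = 5 each), with a log2 fold change of -0.0031 (SE 0.18; edgeR adjusted p = 0.999; two-sided exact permutation p = 0.857). Cx3cr1, the receptor for the neuronal chemokine fractalkine, was at 36.6, 29.4, 60.3, 35.6 and 32.4 CPM in untreated rats and at 36.3, 36.6, 32.4, 45.0 and 47.4 CPM in RG2833 rats. It had the same order of high libraries, and its log2 fold change was 0.03 (SE 0.19; edgeR adjusted p = 0.996; exact permutation p = 0.841).

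P2ry12 encodes the ADP receptor by which resident microglia extend their processes towards damage. It was at 21.6, 21.2, 39.9, 24.7 and 20.6 CPM in untreated and 20.6, 21.7, 21.6, 27.5 and 26.4 CPM in RG2833 rats. All 5 RG2833 values lay below untreated replicate 3, and 2 of them lay above the other 4 untreated rats. The log2 fold change was -0.12 (SE 0.18; edgeR adjusted p = 0.958; exact permutation p = 0.849). P2ry13, another ADP receptor, P2ry6, a receptor for UDP linked to uptake of debris, and Gpr34, a lysophospholipid receptor, had log2 fold changes of -0.06, -0.03 and 0.01. In untreated replicate 3 these 3 genes were at 1.79-fold, 2.11-fold and 1.83-fold the mean of the other untreated rats. In the RefSeq annotation of GRCr8, P2ry12 and P2ry13 lie inside Med12l and Gpr34 inside Cask, and whether counting used strand is not given in the sources used here. Med12l was at 13.7 CPM in untreated replicate 3, at 11.2 to 12.1 CPM in the other untreated rats and at 10.4 to 14.7 CPM in RG2833 rats, highest in replicate 3 and at 10.5 CPM in replicate 4. Cask was at 55.5 CPM there and at 38.3 to 52.6 CPM in the other untreated rats, and in RG2833 replicates 4 and 5 at 60.6 and 70.7 CPM. The part of reads from these overlapping genes in the members' values was not tested.

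Tmem119, a membrane protein of resident microglia that recruited cells largely lack, was at 33.8, 35.3, 67.6, 39.4 and 36.3 CPM in untreated rats. In RG2833 rats it was at 36.8, 50.1, 35.9, 57.2 and 57.6 CPM. Replicates 2, 4 and 5 of the RG2833 group lay above every untreated rat other than replicate 3. The means were 42.5 ± 14.2 and 47.5 ± 10.6 CPM (SD, n = 5 each), 0.16 apart on the log2 scale (SE 0.22; edgeR adjusted p = 0.947; exact permutation p = 0.460). The integrin subunits Itgam and Itgb2, which together form complement receptor 3, had log2 fold changes of -0.11 and 0.03. Selplg, a selectin ligand abundant in microglia, was at -0.0072. The white blood cell proteins Ptprc (CD45), Cd53 and Cd37 were at -0.07, -0.07 and 0.08. All 7 surface genes were highest in untreated replicate 3, by 1.46-fold for Ptprc to 1.92-fold for Selplg against the other untreated rats.

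Tyrobp (DAP12) and Fcer1g are the adaptors that carry the activation motif for TREM2 and for Fc receptors. Tyrobp was at 13.8, 13.3, 31.3, 13.7 and 15.6 CPM in untreated rats and at 17.1, 18.2, 15.3, 21.9 and 27.1 CPM in RG2833 rats. Of the RG2833 rats, 4 lay above the 4 lower untreated rats and all 5 below untreated replicate 3. The log2 fold change was 0.18 (SE 0.26; edgeR adjusted p = 0.949; exact permutation p = 0.397). Fcer1g was at 24.5, 19.9, 41.2, 22.3 and 22.9 CPM in untreated and at 25.4, 32.8, 23.3, 34.3 and 36.9 CPM in RG2833 rats. The arrangement of libraries resembled that of Tyrobp, with a log2 fold change of 0.22 (SE 0.20; edgeR adjusted p = 0.919; exact permutation p = 0.310).

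Lyn, a Src-family kinase that phosphorylates these motifs, had the highest fold change of the set. It was at 21.6, 21.6, 35.3, 21.4 and 21.8 CPM in untreated rats and at 22.2, 29.1, 25.8, 36.7 and 37.0 CPM in RG2833 rats. Untreated rats other than replicate 3 differed from each other by less than 1 CPM, and all 5 RG2833 rats lay above them. The means of 24.3 ± 6.12 and 30.2 ± 6.58 CPM (SD, n = 5 each) were 0.31 apart on the log2 scale (SE 0.18) and did not pass (edgeR adjusted p = 0.841; exact permutation p = 0.127). The inhibitory enzymes of the same pathway had log2 fold changes of 0.02 for the tyrosine phosphatase Ptpn6 (SHP-1) and 0.13 for the lipid phosphatase Inpp5d (SHIP1). Without untreated replicate 3, Inpp5d was at 0.38.

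Plcg2, the phospholipase downstream of Syk, had the lowest fold change. Its values were 6.87, 7.84, 9.43, 8.20 and 7.49 CPM in untreated rats and 5.62, 7.95, 5.76, 7.39 and 6.92 CPM in RG2833 rats. RG2833 replicates 4 and 5, high for most of the set, were not high here. The log2 fold change was -0.24 (SE 0.13; edgeR adjusted p = 0.841; exact permutation p = 0.103). Vav1, a signalling protein of blood cells, was at 3.06, 3.18, 7.04, 3.06 and 3.04 CPM in untreated and at 2.65, 3.01, 3.65, 4.26 and 4.22 CPM in RG2833 rats. Untreated replicate 3 alone was far from the rest, and the log2 fold change was -0.12 (SE 0.27; edgeR adjusted p = 0.976; exact permutation p = 0.849).

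The transcription factor genes followed the receptors. Spi1 was at 10.0, 8.40, 15.7, 8.45 and 9.17 CPM in untreated and at 9.23, 9.20, 9.72, 11.5 and 11.6 CPM in RG2833 rats, a log2 fold change of -0.01 (SE 0.18; edgeR adjusted p = 0.996; exact permutation p = 0.913). Irf8, a partner of PU.1 needed for microglial identity, was at 5.94, 6.15, 11.0, 5.82 and 4.89 CPM in untreated and at 5.87, 5.79, 5.63, 6.95 and 8.58 CPM in RG2833 rats. Its log2 fold change was -0.04 (SE 0.22; edgeR adjusted p = 0.995; exact permutation p = 0.992). Both were highest in untreated replicate 3, by 1.74-fold and 1.94-fold, and second highest in RG2833 replicate 5.

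**Figure D2:**
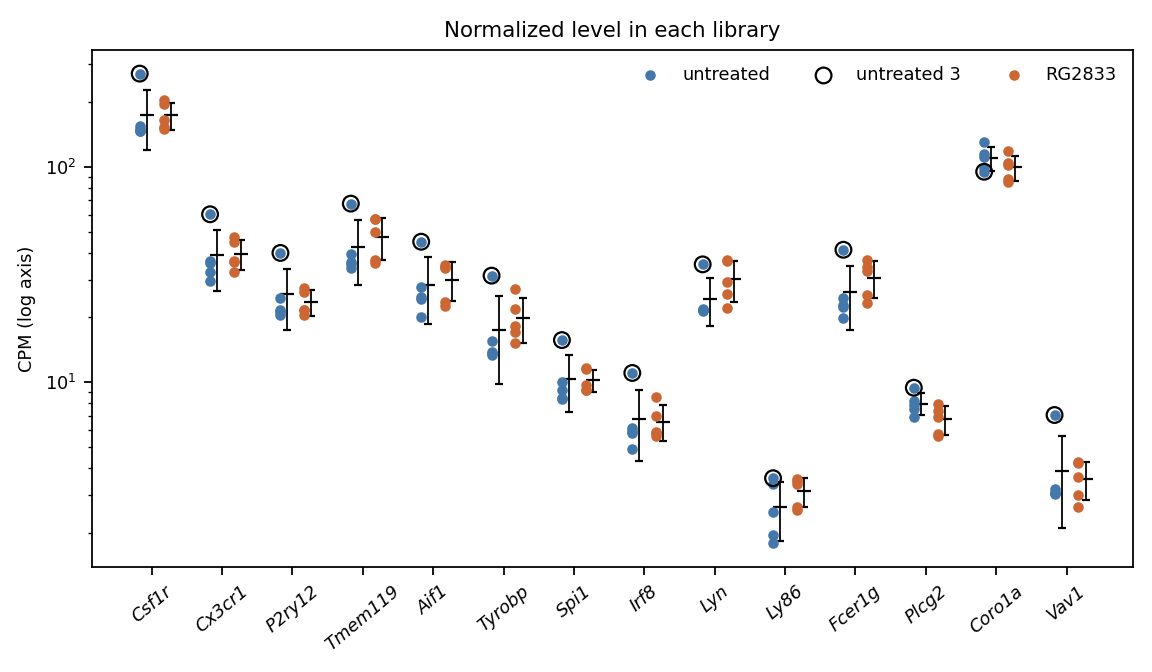
CPM on a log axis for 14 genes in each library, with untreated rats in blue and RG2833 rats in orange, and the mean ± SD (n = 5) as black bars. The ringed point, untreated replicate 3, lies above the other untreated rats for every gene shown other than Coro1a, where it is the lowest of the untreated group.

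The actin and motility genes held the clearest exception. Aif1 encodes Iba1, the actin-bundling protein used to stain microglia. It was at 24.2, 20.0, 45.0, 24.9 and 27.7 CPM in untreated and at 22.7, 34.2, 23.7, 34.9 and 34.0 CPM in RG2833 rats, a log2 fold change of 0.08 (SE 0.22; edgeR adjusted p = 0.981; exact permutation p = 0.659). Untreated replicate 3 was again above all others, and RG2833 replicates 2, 4 and 5 came next. The actin bundler Lcp1 (L-plastin) and Arhgdib had log2 fold changes of 0.11 and 0.09.

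Coro1a, an actin regulator of white blood cells, was at 131, 111, 95.0, 98.9 and 115 CPM in untreated and at 104, 118, 102, 87.6 and 85.6 CPM in RG2833 rats. Its 3 lowest libraries were RG2833 replicates 5 and 4 and untreated replicate 3, the same 3 that were highest for 23 of the other genes. They were also the 3 lowest for the mean of 8 neuronal genes, at log2 deviations of -0.17, -0.14 and -0.26. Of the 8, however, Map2 was at its 3 highest there. Tubb3 was at 379 CPM in untreated replicate 3, below only untreated replicate 1 at 396 CPM. The part of neuronal RNA in the values of Coro1a was not tested. The log2 fold change of Coro1a was -0.14 (SE 0.11; edgeR adjusted p = 0.903; exact permutation p = 0.246).

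Among the lysosomal, endosomal and innate sensing genes, Ly86 (MD-1), a partner of a Toll-like receptor homologue, had the second highest fold change of the set. It was at 1.79, 1.95, 3.58, 3.37 and 2.50 CPM in untreated rats and at 3.36, 3.46, 2.56, 3.57 and 2.63 CPM in RG2833 rats. The groups overlapped over most of their range, and the log2 fold change was 0.24 (SE 0.22; edgeR adjusted p = 0.919; exact permutation p = 0.238). The lysosomal protease gene Ctss, the lysosomal membrane protein gene Laptm5 and Unc93b1, which escorts nucleic acid-sensing Toll-like receptors to endosomes, had log2 fold changes of 0.12, 0.17 and -0.02. In untreated replicate 3 they stood at 1.90-fold, 1.92-fold and 1.76-fold the mean of the other untreated rats. By the RefSeq annotation of GRCr8, 8 of the 31 genes overlap another protein-coding gene. Besides those named above these are Cd37, Unc93b1, Lcp1, Ly86 and Dock2. The expression of Dock2 was not analysed, and the counts of the others are uncertain if strand was not used.

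Without untreated replicate 3, most of the set had a higher mean in RG2833 rats, but no gene passed. Of the 30 genes, 28 then had a higher mean in RG2833 rats, against 45.7% of all genes, and the median log2 fold change was 0.24, against -0.02 over all genes. At an adjusted p under 0.05 in edgeR's test, 0 of the 30 and 0 of all genes (0%) passed. At an unadjusted p under 0.05 there were 8 of the 30, all higher in RG2833 rats, where 14.2% of all genes had such a p and 9.24% did so with a higher level in RG2833. The 8 were Csf1r, Tmem119, Itgb2, Tyrobp, Fcer1g, Lyn, Laptm5 and Ctss. Lists of other brain cells shifted too: in the same fit 8 of 8 astrocyte genes were higher, 6 of them at an unadjusted p under 0.05, with a median log2 fold change of 0.42. Of 8 endothelial genes all 8 were higher, 4 of them (Cldn5, Pecam1, Flt1 and Esam) at an unadjusted p under 0.05, with a median of 0.35. Other lists went the other way. Of 8 neuronal genes only 1, Map2, was higher, at an unadjusted p under 0.05, with a median of -0.18. Of 8 oligodendrocyte genes 1 was higher and 2 had such a p, with a median of -0.275. Choroid plexus genes had 0 of 8 higher and a median of -0.25. The library was left out because its values stood apart, which was known from earlier results of these data, so this count is a description of how far 1 rat sets the comparison.

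Tyrobp then had a log2 fold change of 0.50 (SE 0.15; edgeR adjusted p = 0.292; two-sided exact permutation p = 0.0238, n = 4 and 5). Fcer1g was at 0.45 (SE 0.14; edgeR adjusted p = 0.292; exact permutation p = 0.0476) and Lyn at 0.48 (SE 0.14; edgeR adjusted p = 0.292; exact permutation p = 0.0159). Laptm5 was at 0.42 (SE 0.11; edgeR adjusted p = 0.280; exact permutation p = 0.0238). For 2 of the 30, Lyn and Laptm5, the groups then did not overlap, against 4.71% of all genes. Laptm5 was at 46.2 to 49.5 CPM in the 4 untreated rats and at 53.6, 62.6, 52.6, 72.2 and 77.6 CPM in RG2833 rats; it was singled out after its values were seen. Plcg2 and Coro1a stayed lower in RG2833 rats, at -0.18 and -0.19. The exact permutation p values are not adjusted for having been read for 30 genes. Nor do they account for leaving out untreated replicate 3, which was done on these same values. For Tyrobp, Fcer1g, Lyn and Laptm5 it was the highest untreated rat, so its removal lowers the untreated mean and spread by construction. These p values are given as a description.

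RG2833 replicates 4 and 5 were the 2 highest of their group for most of the set, so that leaving either out lowers the median by construction; the values are given as a description. Leaving out replicate 4 as well as untreated replicate 3 gave 4 of the 30 (Tyrobp, Fcer1g, Lyn and Laptm5) at an unadjusted p under 0.05 (7.9% of all genes) and a median log2 fold change of 0.19. With replicate 5 left out instead there were 5 of the 30, the same 4 and Ctss (9% of all genes), and a median of 0.17. The number of genes with a higher mean was then 28 and 27 of 30, against 46.1% and 45.9% of all genes.

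**Figure D3:**
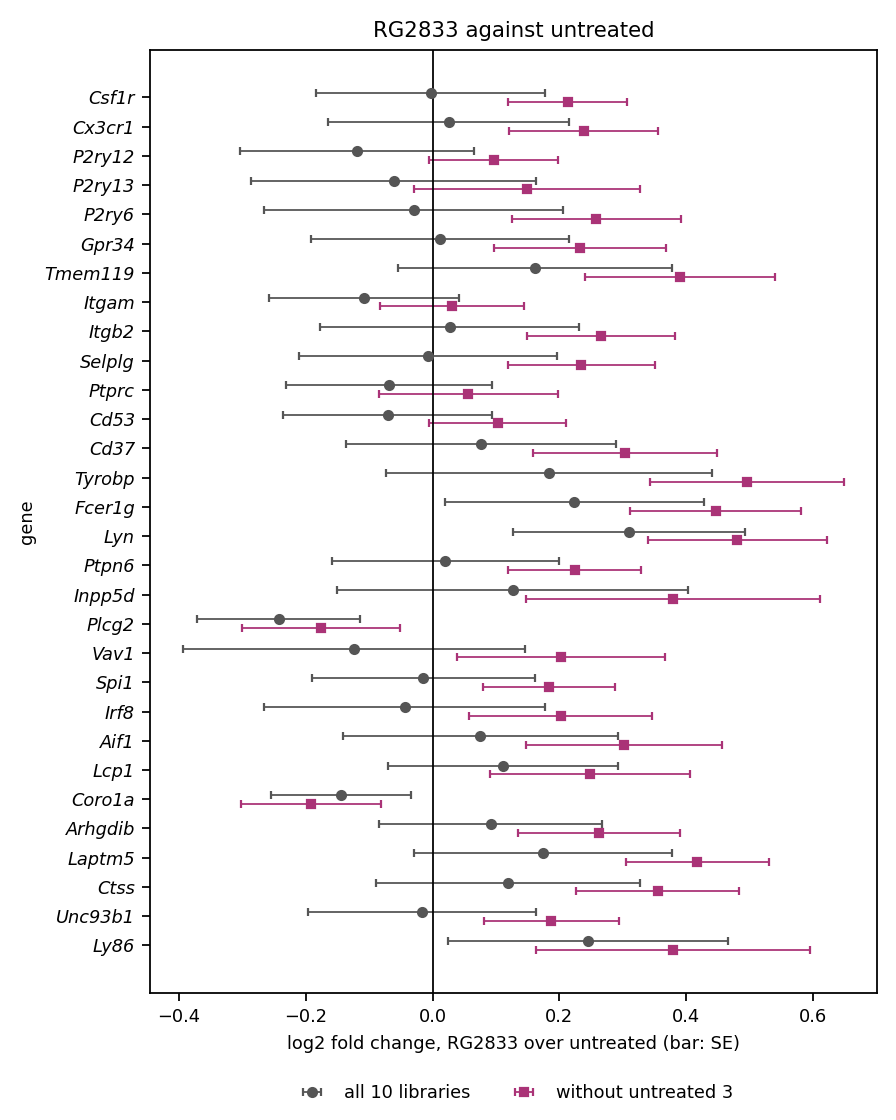
Log2 fold change of RG2833 over untreated for each of the 30 genes, with bars of 1 SE, from all 10 libraries (grey circles) and without untreated replicate 3 (purple squares). The purple squares lie right of the grey circles for every gene except Coro1a, and 28 of 30 lie above 0.

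Other genes of microglia, from a list not used to choose the 30, followed the same rats. Of 48 further microglia genes, 46 were in the tables and 45 passed the count filter. Means were higher for 25 and lower for 20 in RG2833 rats, with 0 at an adjusted and 0 at an unadjusted p under 0.05 in edgeR's test and a median log2 fold change of 0.04. Without untreated replicate 3, 40 were higher (45.7% of all genes), 10 had an unadjusted p under 0.05 (14.2% of all genes), and the median was 0.24. Their mean deviation was 0.60 in untreated replicate 3, -0.28 to -0.09 in the other untreated rats, and 0.25 and 0.29 in RG2833 replicates 4 and 5. In untreated replicate 3, 38 of the 45 were at their highest, as were 19.2% of all genes.

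Partners of Tyrobp and of Fc receptors, 12 genes that include the kinase Syk and the receptor Trem2, had 10 higher and 2 lower in RG2833 rats and a median log2 fold change of 0.14. Of these 0 passed at an adjusted p, and 0 had an unadjusted p under 0.05; without untreated replicate 3 the latter number was 5, Trem2 among them, against 14.2% of all genes. Trem2, which signals through Tyrobp and is named here after its values were seen, was at 30.6 CPM in untreated replicate 3, at 13.3 to 18.3 CPM in the other untreated rats and at 17.3 to 26.2 CPM in RG2833 rats. Ligand genes, which bind member receptors apart from Tgfb1, whose receptors are not among the 31, went both ways. Of 7 listed genes 6 were tested, 2 (C3 and Tgfb1) higher and 4 lower in RG2833 rats, with 0 passing at an adjusted or unadjusted p under 0.05. Without untreated replicate 3, Csf1 (lower) and Tgfb1 (higher) had an unadjusted p under 0.05, 2 of 6 against 14.2% of all genes. Il34 and Cx3cl1, made mainly by neurons, had log2 fold changes of -0.10 and -0.09, and Csf1 of -0.14. Csf1 was at its lowest, 33.3 CPM, in untreated replicate 3, the library in which its receptor was highest, while Il34, the other ligand of that receptor, was there at 45.0 CPM, the highest of the untreated rats. Tgfb1, which maintains the homeostatic state, was highest there, at 32.8 CPM, where its 4 group mates had 14.9 to 18.7 CPM. So was the complement gene C3, whose cleaved product binds complement receptor 3, at 142 CPM against 70.5 to 97.7 CPM.

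Plaque-associated microglia genes went both ways. Their mean deviation, over 13 tested of 17 listed, was -0.03 in untreated replicate 3 and ran from -0.15 to 0.21 over the 10 libraries. Means were higher for 5 and lower for 8 in RG2833 rats, with 0 at an adjusted or unadjusted p under 0.05. Without untreated replicate 3, 4 of the 13 had an unadjusted p under 0.05, against 14.2% of all genes: Apoe (log2 fold change 0.42), Axl (0.48) and Trem2 (0.39) were higher in RG2833 rats and Csf1 (-0.22) lower. Trem2 is also among the partners of Tyrobp and the further microglia genes, and Csf1 is also a listed ligand. The summed level, most of it Apoe, which astrocytes also express, was high in the same rats as the 30 genes, at 9416 CPM in untreated replicate 3, 9582 and 9059 CPM in RG2833 replicates 4 and 5, and 6226 to 8129 CPM in the others.

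The lists of lymphocytes, neutrophils and monocytes, and border macrophages each had their highest summed level in a library other than untreated replicate 3. The lymphocyte list had 11 of 13 genes in the tables and 2 tested, with a summed level of 2.69 to 6.30 CPM in untreated and 2.07 to 6.08 CPM in RG2833 rats; Cd79b and Ms4a1 had 0 counts in all libraries. Cd3e, a T cell marker, was at 0.179 CPM in untreated replicate 3, 0.125 CPM in RG2833 replicate 4 and 0 CPM in RG2833 replicate 5. Lck, the other lymphocyte gene tested, was highest in untreated replicate 3, at 2.87 CPM against 1.59 to 2.15 CPM in the other 9. The neutrophil and monocyte list had 11 of 12 genes in the tables and 1 tested, at a summed 3.28 to 5.71 and 3.63 to 6.22 CPM, with Elane at 0 counts throughout. Border macrophage genes, 9 of 10 in the tables and 7 tested, summed to 18.2 to 44.6 CPM in untreated and 16.3 to 21.4 CPM in RG2833 rats. All 7 had a lower mean in RG2833 rats, where 46.5% of all genes had a higher one; 3 of them (Mrc1, Cd163 and F13a1) had an unadjusted p under 0.05, against 5.66% of all genes, and 0 passed at an adjusted p. Their highest library was untreated replicate 2, at 14.4 CPM for Mrc1 against 1.60 to 4.48 CPM in the other 9. Untreated replicate 3 came second, with a mean deviation of 0.39 and a summed level of 24.2 CPM.

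Markers of other brain cells moved with the same rats. Mean deviations of 8 endothelial genes were 0.52, 0.27 and 0.54 in untreated replicate 3 and RG2833 replicates 4 and 5, and -0.49 to 0.07 in the other 7. Those of 8 astrocyte genes were 0.21, 0.40 and 0.38, and -0.37 to 0.14 elsewhere. Those of 8 neuronal genes were -0.26, -0.14 and -0.17, and -0.07 to 0.23 elsewhere, although Map2 and, in untreated replicate 3, Tubb3 went the other way. Between the drug groups, 6 of 8 endothelial, 8 of 8 astrocyte, 1 of 8 neuronal and 2 of 8 oligodendrocyte genes had a higher mean in RG2833 rats, with 0 at an adjusted p under 0.05 and 2, the astrocyte gap junction genes Gja1 and Gjb6, at an unadjusted p under 0.05. Over all genes 46.5% had a higher mean and 5.66% an unadjusted p under 0.05. Oligodendrocyte genes did not line up, at -0.56, -0.14 and 0.39. The part of tissue composition in the variation of the microglia genes was not tested. Summed levels in untreated against RG2833 rats, all 8 genes of each list tested, were 248 to 488 against 299 to 518 CPM for endothelium, 6037 to 8989 against 6830 to 9834 CPM for astrocytes and 5018 to 6664 against 5610 to 6360 CPM for neurons. Choroid plexus RNA was highest in untreated replicate 2 and RG2833 replicate 1, where the microglia genes were below average. Its mean deviation was 0.61 in untreated replicate 3, at a summed 275 CPM, and -0.57 and -3.09 in RG2833 replicates 4 and 5. Summed levels in untreated replicates 1, 4 and 5 were 25.2, 74.0 and 35.2 CPM.

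**Figure D4:**
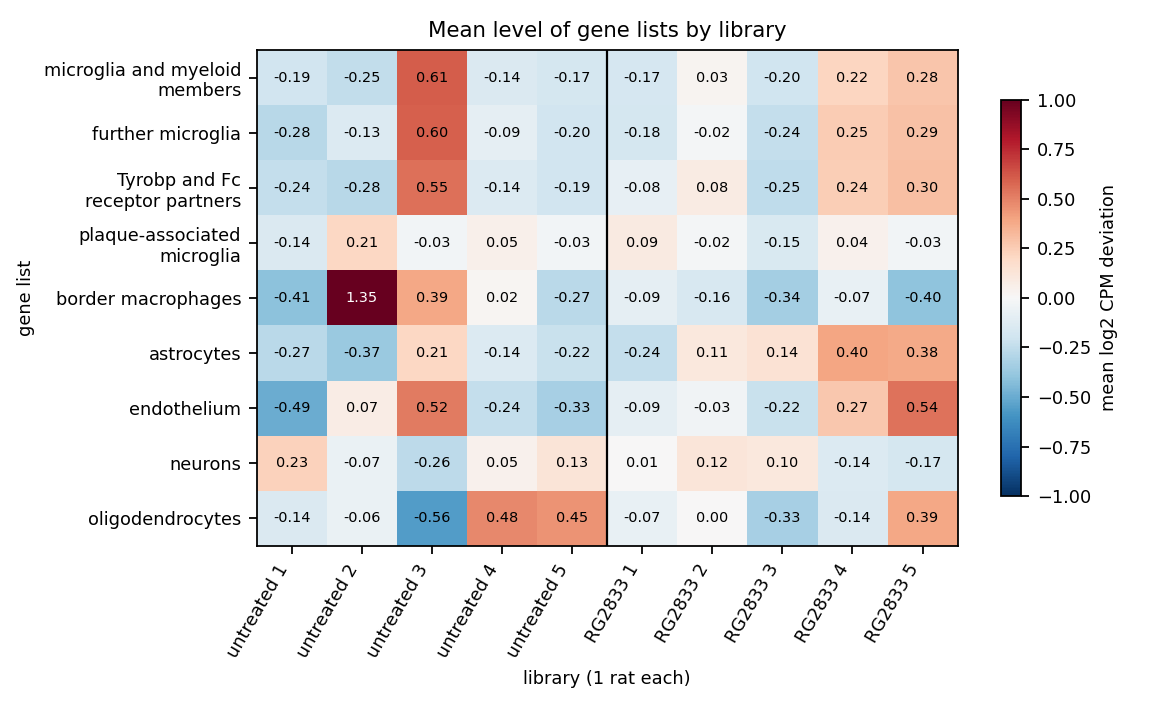
Mean log2 CPM deviation of gene lists (rows) in each library (columns, 1 rat each) from the average of the 10 libraries, with colours ending at 1 and -1. The top 3 rows share their high libraries, untreated replicate 3 and RG2833 replicates 4 and 5, with the astrocyte and endothelium rows. The border macrophage row is highest in untreated replicate 2, at 1.35.

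The promoters of the set were also read for the letters that PU.1 binds. The RefSeq promoter table of GRCr8, 250 bases before to 50 after each annotated start, holds 17 of the 31 genes. Dock2, whose expression was not analysed, is counted among these 17 and among those with the core. The core GAGGAA, searched on both strands (TTCCTC on the other), occurred in 12 of the 17 (70.6%) and in 27.6% of all 33469 promoters of that length, a table that includes genes of every tissue and non-coding genes. The composite element of PU.1 and interferon regulatory factors, also searched on both strands and able to share letters with the core, occurred in 0 of the 17 and in 2.94% of all promoters. A match is a string of letters and not a measured site. The promoters of Ctss, Laptm5 and Itgam, which have the core, are shown beside that of Coro1a, which has none. Capitals mark GAGGAA or TTCCTC; sequences run 5′ to 3′ on the gene's strand, and coordinates are GRCr8.
Ctss (chr2:185775146-185775445, + strand): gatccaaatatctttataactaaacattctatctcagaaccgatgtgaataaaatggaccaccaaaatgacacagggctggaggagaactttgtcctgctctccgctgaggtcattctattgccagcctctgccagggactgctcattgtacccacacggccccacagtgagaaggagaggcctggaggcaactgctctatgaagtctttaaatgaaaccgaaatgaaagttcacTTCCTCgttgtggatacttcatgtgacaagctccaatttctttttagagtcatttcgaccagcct
Laptm5 (chr5:148371630-148371929, + strand): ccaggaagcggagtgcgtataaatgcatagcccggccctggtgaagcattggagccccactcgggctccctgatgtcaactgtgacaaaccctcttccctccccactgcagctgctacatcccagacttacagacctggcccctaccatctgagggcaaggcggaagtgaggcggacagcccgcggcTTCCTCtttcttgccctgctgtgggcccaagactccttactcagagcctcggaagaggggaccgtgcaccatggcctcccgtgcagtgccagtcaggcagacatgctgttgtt
Itgam (chr1:192089342-192089641, + strand): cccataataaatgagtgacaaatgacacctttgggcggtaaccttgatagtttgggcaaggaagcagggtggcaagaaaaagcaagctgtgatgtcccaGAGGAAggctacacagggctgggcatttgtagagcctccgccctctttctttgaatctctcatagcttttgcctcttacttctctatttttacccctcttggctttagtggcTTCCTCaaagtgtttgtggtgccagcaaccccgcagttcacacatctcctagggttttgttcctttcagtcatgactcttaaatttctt
Coro1a (chr1:190731054-190731353, - strand): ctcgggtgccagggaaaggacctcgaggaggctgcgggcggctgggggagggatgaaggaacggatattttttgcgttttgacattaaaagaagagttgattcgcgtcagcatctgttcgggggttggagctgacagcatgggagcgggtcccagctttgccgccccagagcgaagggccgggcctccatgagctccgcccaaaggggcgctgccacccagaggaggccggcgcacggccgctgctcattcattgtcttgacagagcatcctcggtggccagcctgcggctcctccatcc
The first base of the match lay 15 bases before the annotated start in Ctss and 63 before it in Laptm5, and Itgam had matches 151 and 39 bases before it. Of the 17 genes, Cx3cr1, P2ry13, Ptpn6, Irf8 and Coro1a had no match in this window. The first 4 were highest in untreated replicate 3 and Coro1a was not. Plcg2, which like Coro1a stayed lower in RG2833 rats without untreated replicate 3, had a match 134 bases before its start. Whether PU.1 binding bears on how the genes varied was not tested.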

How the data were processed

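Left hippocampal RNA of 10 rats was sequenced; per the labels' protocols the kit keeps the strand and selects mRNA. The authors deposited RSEM expected counts per gene, which need not be whole (11.6% were not), and a signal table of CPM on TMM-scaled library sizes. RSEM 1.2.15, Bowtie2 2.1.0, bcl2fastq 2.17, edgeR and the rat build rn6 are listed per the submitters' processing notes; the annotation and the strand setting are not given in the sources used here.

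Rounded expected counts entered edgeR 4.0.16 (R 4.3.3), with filterByExpr (minimum count 10, minimum total count 15), TMM scaling and robust glmQLFit and glmQLFTest. Benjamini-Hochberg adjustment covered all genes tested, at a threshold of 0.05. Standard errors were taken from the F statistic. Deviations use log2 CPM with a prior count of 2. For single genes a two-sided exact permutation test used the 252 regroupings of 5 and 5 libraries (smallest possible p = 0.00794), or 126 without untreated replicate 3. Whole reads recovered from the deposited signal (100% of values within a tolerance of 0.01 reads, or 0.01% of larger values) matched the rounded counts for at least 99.91% of genes in each library, and edgeR called 0 genes on them. Fits were tested on simulated data. Over 45 pairs of libraries the chi-square per gene was at least 7.2, so no 2 were counted as 1. The labels describe each sample as a rat and give no cage or litter.

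The members and gene lists were chosen with earlier results of these data known. Values in every library are given for 8 defining genes, any member at an unadjusted p under 0.05 and the 3 highest and 3 lowest fold changes. Alternatives were other scalings, filters and tools (limma 3.58.1, DESeq2 1.42.0), a replicate block and leaving out libraries. The lists of red blood cells and choroid plexus genes served as checks: red blood cell genes, 3 tested of 5, had 0 higher and 3 lower in RG2833 rats, and choroid plexus genes 4 higher and 4 lower, with 0 of either at an unadjusted p under 0.05.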

Additional observations from a re-analysis of the deposited data

Results flagged for a closer look

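Untreated and RG2833 values of each gene, and of their mean, were screened on the log2 CPM scale for a single rat standing apart. The limit was a distance to its closest group mate of more than 0.71 of the whole spread of 5 values. This held for 18 of the 62 sets screened; by chance 5% would, and the sets are not independent, since genes of 1 cell type share their rats. All 18 were untreated replicate 3 standing high. For the mean of the 30 genes the gap was 0.881 of the range. Among receptors it was 0.908 for Csf1r, 0.722 for P2ry12 and 0.843 for P2ry6. Among surface genes it was 0.778 for Tmem119, 0.800 for Itgb2, 0.762 for Selplg and 0.782 for Cd53. For adaptors and signalling enzymes it was 0.817 for Tyrobp, 0.712 for Fcer1g, 0.963 for Lyn, 0.851 for Ptpn6 and 0.949 for Vav1. The transcription factor genes Spi1 and Irf8 had gaps of 0.716 and 0.720. Lcp1, Laptm5 and Ctss had gaps of 0.748, 0.900 and 0.738. No set of RG2833 values among the 31 tested passed this limit. The cause was not tested.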

How the results depend on the processing

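No member passed an adjusted p of 0.05 in edgeR, DESeq2 or limma-voom under any alternative run, so the number of members called stayed at 0. Of 570 member fold changes, 78 turned sign. This count leaves out the fits without untreated replicate 3 together with RG2833 replicate 4 or 5. Members with an unadjusted p under 0.05 numbered 0 to 8 with 1 library left out (8 without untreated replicate 3; 1, Lyn, without RG2833 replicate 1; 1, Plcg2, without RG2833 replicate 2; 0 otherwise), 3 in limma-voom with sample weights, and 4 and 5 without untreated replicate 3 together with RG2833 replicate 4 or 5. Over all genes that number was 375 to 1732 with 1 library left out, 1266 in limma-voom, 401 with the replicate block and 1094 without untreated replicate 3 and RG2833 replicate 5; DESeq2 gave 7 genes at an adjusted p under 0.05. The median log2 fold change of the members ran from -0.05 without RG2833 replicate 5 to 0.24 without untreated replicate 3. Untreated replicate 3 was highest for 26 members in CPM without TMM scaling and for 27 with RLE size factors. This was not counted under upper-quartile scaling.

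Signs that turned, as log2 fold changes with 1 library left out at a time, ranged from -0.0653 to 0.21 for Csf1r, -0.06 to 0.24 for Cx3cr1, -0.19 to 0.10 for P2ry12, -0.16 to 0.15 for P2ry13, -0.11 to 0.26 for P2ry6, -0.10 to 0.23 for Gpr34, -0.18 to 0.0308 for Itgam, -0.0519 to 0.27 for Itgb2, -0.10 to 0.23 for Selplg, -0.13 to 0.0566 for Ptprc, -0.14 to 0.10 for Cd53 and -0.0207 to 0.30 for Cd37. They ranged from -0.0437 to 0.22 for Ptpn6, -0.0323 to 0.38 for Inpp5d, -0.20 to 0.20 for Vav1, -0.0816 to 0.18 for Spi1, -0.16 to 0.20 for Irf8, -0.0272 to 0.30 for Aif1 and -0.10 to 0.19 for Unc93b1. In limma-voom with sample weights the values turned to 0.12 for Csf1r, 0.0142 for P2ry12, 0.0037 for P2ry13, 0.10 for P2ry6, 0.0939 for Selplg, 0.0435 for Ptprc, 0.0087 for Cd53, 0.0685 for Vav1, 0.081 for Spi1, 0.11 for Irf8 and 0.14 for Unc93b1. Without the 2 libraries richest in Ttr they turned to -0.0373 for Cx3cr1, -0.0418 for Gpr34, -0.0058 for Itgb2 and 0.0244 for Unc93b1. Gpr34 was at -0.0011 under upper-quartile scaling and Csf1r at 0.0013 with no filter. The causes were not tested.

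With the replicate block, which called 0 members and 0 of all genes at an adjusted p, Csf1r was at 0.0357, P2ry6 at 0.0286, Selplg at 0.042, Spi1 at 0.0192 and Unc93b1 at 0.0217. The numbers do not pair the rats by any label: same-numbered libraries had correlations of deviations from -0.49 to -0.03, and 0 of 10 correlated best with their own number.

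The spread between rats and 5 rats a group limit what can be seen: the median SD of the members' log2 CPM was 0.41 in untreated rats (0.198 over all genes), 0.124 without untreated replicate 3 (0.139) and 0.248 in RG2833 rats (0.166); for Ly86 and Vav1 counting adds to it.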
